A study of Mus musculus with 10 samples.

Results

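Hsd11b1, Fkbp5, Tsc22d3, Sgk1 and Zbtb16 make up a set of 5 genes of glucocorticoid activation and response, picked by gene symbol from the 20295 gene models of the count table. All 5 passed the filter on low counts, which kept 11229 gene models for testing. Their poly-adenylated transcripts were sequenced from the interscapular depot of brown fat, a tissue that burns fuel for heat. The control group was 5 mice kept at 22 °C and the cold group 5 mice held at 4 °C for 3 days. All 10 were male C57BL/6JBomTac mice, 8 weeks old, housed alone on chow with a light and dark cycle, and no allele or agent other than the temperature separates the groups. Each mouse gave 1 library of whole tissue, with 4446163 to 6923932 counts per library. A library of each group stood apart over all genes: the chi-square per degree of freedom between libraries was 20.3 to 38.7 for control replicate 2 with the other controls, against 7.09 to 16.5 among those, and 13 to 20.6 for cold replicate 5 with the other cold libraries, against 3.31 to 6.2 among those. Results that rest on these libraries are given with and without them. The treatment tag of the cold samples gives room temperature together with 4 °C, while their titles and source names place them in the cold group. The comparison addresses what the transcript levels of this pathway are after 3 days of cold.

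Glucocorticoids are steroid hormones of the adrenal cortex, corticosterone being the main one in the mouse. Inside the cell, 11-beta-hydroxysteroid dehydrogenase type 1, the product of Hsd11b1, regenerates active corticosterone from its inert 11-dehydro form, with NADPH supplied in the endoplasmic reticulum by the enzyme of H6pd. The hormone binds the glucocorticoid receptor (Nr3c1), which is held ready by HSP90 and its co-chaperones and then binds DNA at glucocorticoid response elements. Fkbp5 encodes FKBP51, a co-chaperone that lowers the receptor's affinity for hormone and is itself raised by it. Tsc22d3 encodes the leucine zipper protein GILZ, Sgk1 a kinase that acts on ion transport and on FOXO factors, and Zbtb16 the zinc finger transcription factor PLZF, and all are textbook genes raised by glucocorticoids. In rodent brown fat glucocorticoids are known to dampen thermogenic gene expression.

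The bases before the transcript start are shown for 3 members whose results differ in kind: Sgk1, higher in cold without 1 control library; Hsd11b1, lower in cold; and Fkbp5, high in 1 library of each group. RefSeq promoters of the GRCm38.p6 assembly (250 bases before to 50 after a start) matched 4 of the 5 members, in 11 entries, none of them for Zbtb16. The full palindromic response element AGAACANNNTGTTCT, searched on both strands, was present in 3 of 32851 such promoters of 300 bases (0.00913%), and 1 of these is among the 6 promoter entries of Sgk1, the other 5 of which do not hold it. In the 250 bases before that start, chr10:21993640-21993889 on the plus strand, capitals mark the element, which ends 174 bases before the start:
Sgk1: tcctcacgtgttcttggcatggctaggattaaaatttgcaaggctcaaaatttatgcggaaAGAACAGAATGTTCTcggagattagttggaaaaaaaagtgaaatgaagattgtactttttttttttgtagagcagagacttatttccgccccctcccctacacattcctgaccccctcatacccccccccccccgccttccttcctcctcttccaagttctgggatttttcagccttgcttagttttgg
The promoters of Hsd11b1 and Fkbp5 do not hold those letters, or the single arm AGAACA that 19% of all promoters hold. They hold the CCAAT box (CCAAT or ATTGG, in 37.4% of all promoters), in capitals here, once in Hsd11b1 (chr1:193242361-193242610, minus strand) and at 2 places in Fkbp5 (chr17:28486150-28486399, minus strand):
Hsd11b1: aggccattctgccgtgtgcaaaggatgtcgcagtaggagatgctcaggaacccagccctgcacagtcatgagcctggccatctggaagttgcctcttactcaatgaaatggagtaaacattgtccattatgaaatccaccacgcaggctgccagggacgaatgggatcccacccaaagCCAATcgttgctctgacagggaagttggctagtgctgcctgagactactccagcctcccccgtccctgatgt
Fkbp5: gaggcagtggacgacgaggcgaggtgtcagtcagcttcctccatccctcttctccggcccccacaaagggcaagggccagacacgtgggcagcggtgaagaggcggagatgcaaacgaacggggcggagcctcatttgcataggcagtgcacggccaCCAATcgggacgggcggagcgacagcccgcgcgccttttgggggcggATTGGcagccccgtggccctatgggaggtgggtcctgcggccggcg
Reads were counted per gene model, so the start used in this tissue was not measured, and a match of letters is a description and not a binding site.

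Hsd11b1, the activating enzyme, was the member that fell in cold. Its level (CPM, a gene's reads divided by the scaled library total) was 222.6, 428.6, 294.1, 223.2 and 298.2 in control replicates 1 to 5, and 75.9, 124.4, 63.1, 84.7 and 264.8 in cold replicates 1 to 5. In 4 of the 5 cold libraries Hsd11b1 lay below every control, while cold replicate 5 lay among the controls, so the groups overlapped. The control mean was 293 ± 84.0 CPM and the cold mean 123 ± 82.8 CPM (SD, n = 5 each). The log2 fold change was -1.26 (SE 0.34, adjusted p = 0.0214, edgeR's quasi-likelihood test with Benjamini-Hochberg adjustment over all genes tested), a level 2.40-fold lower. Without cold replicate 5 the log2 fold change was -1.76 (adjusted p = 0.00028), and without both cold replicate 5 and control replicate 2 it was -1.58 (SE 0.18, adjusted p = 4.4e-05), in fits where 9.91% and 11.7% of all genes were called lower. The call was lost when cold replicate 1, 3 or 4 was left out, with adjusted p of 0.0541, 0.0521 and 0.0589. In bulk tissue, fewer cells that express a gene and less RNA per cell cannot be told apart. Hsd11b1 was counted over 1373 bases of chr1:195047835-195090239 on the minus strand (mm9), and no other gene model of the table overlaps it. The nearest, G0s2, which encodes an inhibitor of the fat lipase ATGL and was chosen after its values were seen, lies 8115 bases away and had a log2 fold change of -0.18 (adjusted p = 0.685, edgeR).

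Of the 5 members, Hsd11b1 was the only 1 called in the test of all 10 libraries, against 19.3% of all genes tested (10.2% higher and 9.14% lower in cold). In none of the 5 did the cold and control libraries separate without overlap, against 14% of all genes tested (6.57% with cold below control). The plot of levels by library shows Fkbp5, Tsc22d3 and Sgk1 with 1 control library far above the others. For Zbtb16 the highest control was at 70.0 CPM and the next at 28.8 CPM.

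**Figure D1:**
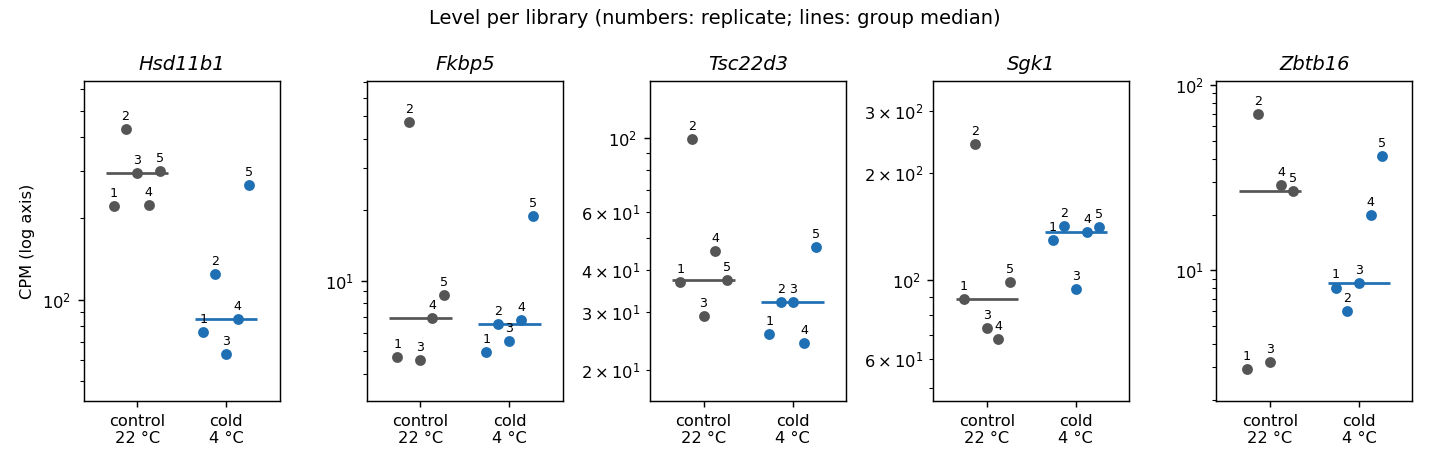
Level of each member in CPM (log axis, a scale of its own in each panel) in the 5 control libraries (grey, 22 °C) and the 5 cold libraries (blue, 4 °C). Points carry the replicate number and lines mark the group median. Control replicate 2 is the highest control in every panel, and cold replicate 5 is the highest cold library in every panel but that of Sgk1.

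Fkbp5, the receptor's co-chaperone, was low in 8 of the libraries and high in the same 2 that recur below. It was at 4.75, 47.1, 4.60, 6.91 and 8.67 CPM in control replicates 1 to 5, and at 4.98, 6.53, 5.56, 6.82 and 18.9 CPM in cold replicates 1 to 5. These values rest on few reads, from 20 counts in control replicate 3 to 240 in control replicate 2. The groups overlapped, and control replicate 2 alone was above every cold library. The log2 fold change was -0.78 (SE 0.63, adjusted p = 0.412, edgeR). Without control replicate 2 the estimate turned to 0.42 (SE 0.39, adjusted p = 0.477), and without control replicate 2 and cold replicate 5 it was -0.08 (SE 0.23, adjusted p = 0.838). The gene model lies at chr17:28535698-28623094 on the minus strand (mm9).

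Tsc22d3, the gene of GILZ, was not called either. It was at 36.9, 99.2, 29.2, 45.8 and 37.4 CPM in control replicates 1 to 5, and at 25.6, 32.2, 32.1, 24.1 and 46.9 CPM in cold replicates 1 to 5. Apart from cold replicate 5, the cold libraries lay below 4 of the 5 controls. The log2 fold change was -0.63 (SE 0.30, adjusted p = 0.152, edgeR). It was -0.23 (adjusted p = 0.414) without control replicate 2, and -0.40 (SE 0.14, adjusted p = 0.0578) without control replicate 2 and cold replicate 5. The gene model lies at chrX:137074068-137135061 on the minus strand (mm9).

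Sgk1, the kinase gene, was called higher in cold only in fits that set aside control replicate 2, its highest control. It was at 88.7, 242, 73.5, 68.5 and 99.1 CPM in control replicates 1 to 5, and at 129.5, 142, 94.3, 137.1 and 141.4 CPM in cold replicates 1 to 5. Control replicate 2 was above every cold library, and the other 4 controls were below every cold library but cold replicate 3. Over all 10 libraries the log2 fold change was 0.17 (SE 0.30, adjusted p = 0.722, edgeR). Without control replicate 2 it was 0.64 (SE 0.14, adjusted p = 0.00565), a level 1.56-fold higher, with 21.4% of all genes called in that fit. Without control replicate 2 and cold replicate 5 it was 0.61 (adjusted p = 0.00712), with 25.3% of all genes called. The call on Sgk1 thus rests on whether 1 control library is kept. The gene model lies at chr10:21601990-21719708 on the plus strand (mm9).

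Zbtb16, the gene of PLZF, had the widest range of the 5 members among controls, from lowest to highest library. It was at 2.94, 70.0, 3.22, 28.8 and 26.8 CPM in control replicates 1 to 5, which is a 23.8-fold range, and at 8.07, 6.06, 8.55, 19.8 and 41.1 CPM in cold replicates 1 to 5. The lowest controls held 13 and 14 counts. Here control replicate 2 and cold replicate 5 were the highest of their groups, but control replicates 4 and 5 and cold replicate 4 also stood above the rest, and the groups overlapped throughout. The log2 fold change was -0.69 (SE 0.72, adjusted p = 0.531, edgeR). It was 0.05 (SE 0.66, adjusted p = 0.969) without control replicate 2 and -0.59 (SE 0.58, adjusted p = 0.489) without control replicate 2 and cold replicate 5. The gene model lies at chr9:48462402-48644050 on the minus strand (mm9).

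**Figure D2:**
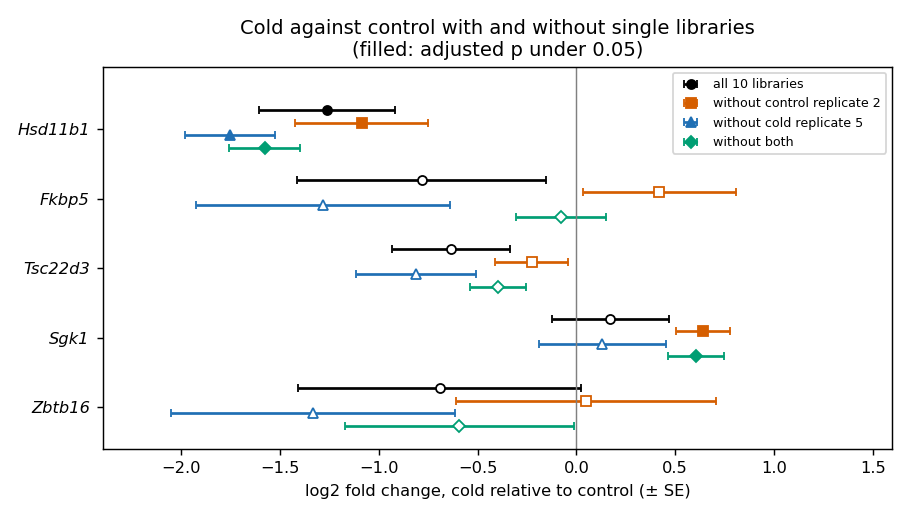
Log2 fold change of each member, cold relative to control, with its SE (bars), over all 10 libraries and without control replicate 2, without cold replicate 5 or without both. Filled symbols have an adjusted p under 0.05. Hsd11b1 stays between -1.76 and -1.09 in these 4 fits, while Fkbp5 and Zbtb16 change sign without control replicate 2 and Sgk1 passes the threshold without it.

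The spread within groups was wide for these genes. The SD over the 5 controls was 127% of the mean for Fkbp5, 104% for Zbtb16, 63.3% for Sgk1, 57.0% for Tsc22d3 and 28.6% for Hsd11b1. Over the 9790 genes with a mean of at least 5 CPM, the median of this measure was 15.3% in control and 11.4% in cold. In cold it was 87.7% for Zbtb16, 68.1% for Fkbp5, 67.5% for Hsd11b1, 28.1% for Tsc22d3 and 15.5% for Sgk1. Each of these values was above the median over genes in its group. The spread of Hsd11b1 was wider in cold than in control, and that of the other 4 members wider in control, differences that were not tested.

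Control replicate 2 was the highest control for all 5 members, and cold replicate 5 the highest cold library for 4 of them. Relative to the median of the other 4 controls, control replicate 2 held 7.52 times as much Fkbp5, 4.54 times as much Zbtb16, 2.97 times as much Sgk1, 2.65 times as much Tsc22d3 and 1.66 times as much Hsd11b1 (ratios with 0.5 CPM added to each value). All 5 members were at least 1.5-fold higher there, against 8.53% of all genes tested, and 4 of 5 at least 2-fold, against 2.62%. Relative to the median of the other 4 cold libraries, cold replicate 5 held 4.73 times as much Zbtb16, 3.28 times as much Hsd11b1, 2.96 times as much Fkbp5, 1.62 times as much Tsc22d3 and 1.06 times as much Sgk1. There 4 of 5 members were at least 1.5-fold higher, against 3.23% of all genes tested, and 3 of 5 at least 2-fold, against 0.704%. Only 4 of the 11229 genes tested had a higher ratio than Zbtb16 in cold replicate 5, and only 11 a higher ratio than Fkbp5 in control replicate 2. In the other 8 libraries 0 or 1 of the 5 members reached 1.5-fold.

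The other genes that glucocorticoids raise, a list of 36 of which 33 were tested, moved with the members in these libraries. In control replicate 2, 18 of the 33 (54.5%) were at least 1.5-fold above the median of the other controls, against 8.53% of all genes tested. In cold replicate 5, 13 of 33 (39.4%) were so above the median of the other cold libraries, against 3.23% of all genes tested. In each of the other 8 libraries 1 to 3 of the 33 were. Per1, a clock gene with response elements of its own, was at 134.7 CPM in control replicate 2 and at 25.8 to 34.5 CPM in the other controls. Klf9, a zinc finger factor of the immediate hormone response, was at 248.7 CPM in control replicate 2 and 243.5 CPM in cold replicate 5, and at 91.6 to 140.1 CPM in the other 8 libraries. Mt2, a metallothionein chosen after its values were seen, was 2.29 times as high in control replicate 2 and 4.00 times as high in cold replicate 5. Not all of the list did so. Cdkn1a, the cell cycle inhibitor p21, Irs2, an adaptor of insulin signalling, and Rgs2, a regulator of G protein signalling, also chosen after their values were seen, were 6.91, 5.46 and 4.49 times as high in control replicate 2, but 1.46, 0.746 and 0.205 times in cold replicate 5.

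**Figure D3:**
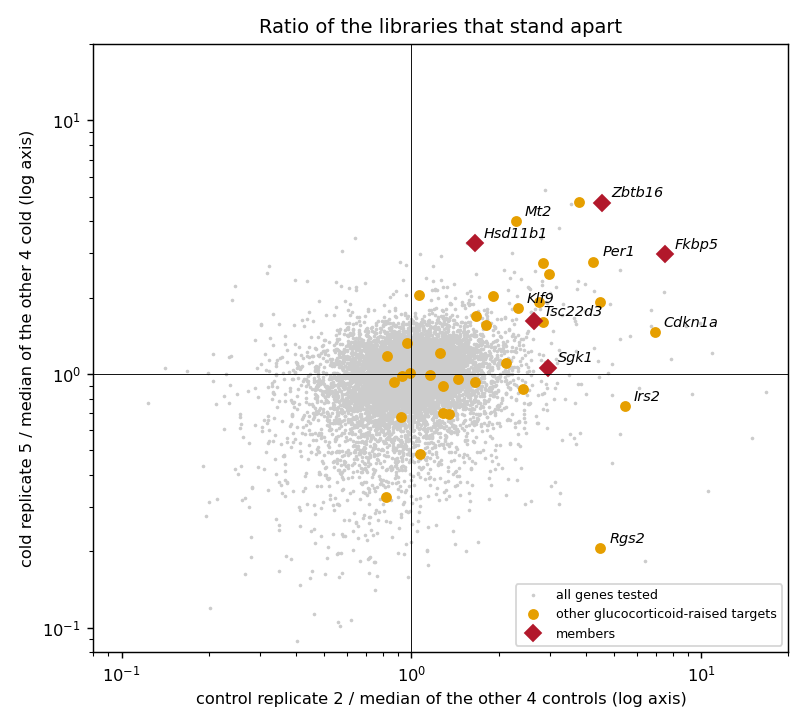
Each of the 11229 genes tested (grey), the 33 other genes raised by glucocorticoids (orange) and the 5 members (red) by their ratio in control replicate 2 to the median of the other 4 controls (x, log axis) and in cold replicate 5 to the median of the other 4 cold libraries (y, log axis). Fkbp5 lies at 7.52 and 2.96, Zbtb16 at 4.54 and 4.73, and Sgk1 at 2.97 and 1.06.

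Other measured features also differed among libraries, some in control replicate 2 and some in cold replicate 5. Over 9 immediate early genes (transcription factors induced within minutes of a stimulus), the mean log2 CPM was 5.13 in control replicate 2 and 3.28 to 4.11 in the other controls, but 3.51 in cold replicate 5 and 3.59 to 3.94 in the rest of its group. Over 8 clock genes of the Dbp and Per2 phase, cold replicate 5 had a mean of 6.07, the rest of its group 4.20 to 5.04 and the controls 5.33 to 6.48. The 1.5-fold mark above the group's other libraries was reached by these lists too. In control replicate 2 it was reached by 6 of the 9 immediate early genes (66.7%) and 2 of the 8 clock genes (25%). In cold replicate 5 it was reached by 1 of the 9 (11.1%) and 6 of the 8 (75%). Over 4 clock genes of a second list, control replicate 2 had a mean of 4.86 and the other controls 3.27 to 4.38. For that list cold replicate 5 had 4.30 and the rest of its group 4.98 to 5.29. Of these 4 genes, 3 reached the 1.5-fold mark in control replicate 2 and 0 in cold replicate 5. The summed level of 7 macrophage markers, 1 of them also in the list of genes raised by glucocorticoids, was 70.1 CPM in cold replicate 5, 135.9 to 358.8 in the rest of its group and 90.5 to 204.9 in the controls. The summed level of 8 fibroblast markers was likewise 278 CPM there, 702 to 932 in the rest of the cold group and 415 to 630 in the controls. Control replicate 2 had the highest control sum of 6 smooth muscle markers, 651 CPM against 409.5 to 518.8 in the other controls. It also had that of 8 endothelial markers, 1007 CPM against 698.8 to 865.4. There 4 of the 6 and 2 of the 8 reached the 1.5-fold mark, against 8.53% of all genes tested. The cold sums were 463.9 to 653.5 and 843 to 1009 CPM. Of 8 skeletal muscle markers 1 was tested, and their sum was 322 and 219 CPM in cold replicates 2 and 3 and 5.97 to 78.3 CPM elsewhere. None of 9 lymphocyte markers passed the filter, and of 5 white fat markers Hoxc9 was at 0 in every library, while the other 4 were tested, 1 of them (Nnat) rose and the list summed to 48.0 to 152.5 CPM in the controls and 25.6 to 108.4 CPM in cold. The 8 brown adipocyte markers, Ucp1 among them, summed to 13310 to 16720 CPM in control and 23190 to 26940 CPM in cold, so as a sum they were abundant in every library. The list did not rise as a whole: 3 of the 8 rose, 1 fell and 4 were not called. Over all genes tested 10.2% were called higher and 9.14% lower. The median log2 fold change of the 8 was -0.01. The part of these features in the levels of the members was not tested.

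By level per length (CPM per kilobase counted), the members kept nearly the same order in every library. Hsd11b1 was highest, at 214 ± 61.2 in control and 89.3 ± 60.3 in cold (SD, n = 5 each), above 95.8% of all genes tested. Sgk1 followed at 36.8 ± 23.3 and 41.5 ± 6.42, then Tsc22d3 at 23.1 ± 13.2 and 15 ± 4.21. Zbtb16 was at 5.16 ± 5.35 and 3.27 ± 2.87, and Fkbp5 at 3.71 ± 4.72 and 2.20 ± 1.5, with 30.5% and 22.5% of all genes lower. Hsd11b1 exceeded Sgk1, Sgk1 exceeded Tsc22d3, and Tsc22d3 exceeded Zbtb16 in 10 of 10 libraries. Zbtb16 exceeded Fkbp5 in 7 of 10, so these neighbours do not differ beyond their spread.

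**Figure D4:**
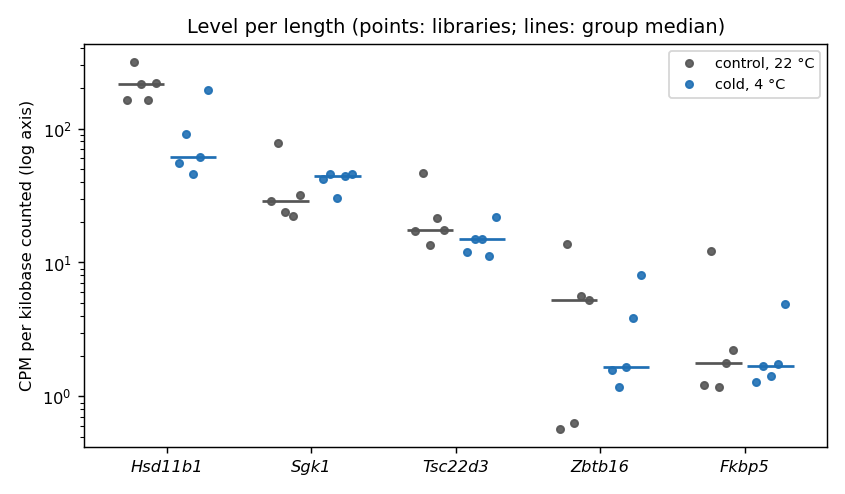
Level per length of the 5 members (CPM per kilobase counted, log axis) in the 5 control (grey) and 5 cold (blue) libraries, with lines at the group medians. The levels run from Hsd11b1, with medians of 214 in control and 61.7 in cold, down to Fkbp5, with medians of 1.78 and 1.68.

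Of the genes that carry and sense the hormone signal, some chaperones of the receptor rose and others were not called. In a list of 21 genes of hormone handling, receptors, chaperones and coregulators, 18 were tested, 7 rose and 0 fell (5 to 7 rose in the alternatives), against 10.2% higher and 9.14% lower over all genes tested. The median log2 fold change was 0.13 against -0.02 over all genes tested. HSP90 genes rose, Hsp90aa1 from 122.5 ± 15.6 to 228 ± 18.6 CPM (SD, n = 5 each; log2 fold change 0.90, adjusted p = 6.7e-05, edgeR) and Hsp90ab1 from 677 ± 74.2 to 999 ± 62.2 CPM (0.56, adjusted p = 0.000911). Hspa8, the constitutive HSP70 that loads the receptor, rose by 1.21 on the log2 scale (SE 0.14, adjusted p = 0.000116). Fkbp4, whose product FKBP52 competes with FKBP51 for HSP90 and favours the receptor's activity, rose from 154 ± 7.68 to 240 ± 38.5 CPM (log2 fold change 0.64, SE 0.11, adjusted p = 0.0015). For Fkbp4 and these 3 chaperone genes every cold library was above every control. Stip1, which links HSP70 to HSP90 (0.30, adjusted p = 0.0466), and the coactivator gene Ncoa1 (0.50, adjusted p = 0.0122), both named after their values were seen, also rose. The call on Stip1 held in 8 of 21 alternatives, and its adjusted p was 0.0762 without control replicate 2, 0.0517 without cold replicate 5 and 0.0649 without both. Unlike Ncoa1, the coactivator genes Ncoa2 (-0.19, adjusted p = 0.139) and Ncoa3 (-0.11, adjusted p = 0.588) were not called. The co-chaperone genes Ptges3 (-0.10, adjusted p = 0.597), Ppid (0.25, adjusted p = 0.099) and Bag1 (0.07, adjusted p = 0.599) were not called either. These 2 coactivator and 3 co-chaperone genes were also named after their values were seen. These chaperones serve many clients besides the receptor.

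The receptors and the partner enzyme of Hsd11b1 were not called. Nr3c1 had a control mean of 166.9 ± 15.3 CPM and a cold mean of 178.8 ± 26.0 CPM (SD, n = 5 each; log2 fold change 0.10, SE 0.11, adjusted p = 0.552, edgeR). Nr3c2, the mineralocorticoid receptor, which corticosterone also binds, was at 7.98 ± 2.58 and 5.50 ± 2.35 CPM (-0.53, SE 0.30, adjusted p = 0.234). H6pd was at 264.9 ± 53.5 and 268.4 ± 53.0 CPM (0.02, SE 0.15, adjusted p = 0.944). In cold replicate 5, where Hsd11b1 was high among cold libraries, H6pd was at 359.5 CPM and in the rest of that group at 222.4 to 259.3 CPM, whereas in control replicate 2, where Hsd11b1 was also high, H6pd was the lowest control at 183.6 CPM. Hsd11b2, the enzyme that inactivates the hormone, was among the 3 genes of the list that did not pass the filter.

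The 33 tested genes that glucocorticoids raise did not move one way in cold. Of them 3 rose and 3 fell, against 10.2% higher and 9.14% lower over all genes tested. The median log2 fold change was -0.09, against -0.02 over all genes tested. Dusp1, a phosphatase of MAP kinases, rose from 43.3 ± 4.24 to 84.2 ± 9.82 CPM (0.96, SE 0.10, adjusted p = 5.8e-05, edgeR), and Anxa1, the gene of annexin A1, rose by 1.12 (SE 0.27, adjusted p = 0.0125). Rhob, a small GTPase gene, fell by 0.69 on the log2 scale (SE 0.11, adjusted p = 0.00103), and Sesn1, a sestrin gene, fell by 0.59 (SE 0.18, adjusted p = 0.0331). The others called, named after their values were seen, were Pdk4, an inhibitor of pyruvate dehydrogenase, which rose by 0.69 (adjusted p = 0.0362), and Angptl4, an inhibitor of lipoprotein lipase, which fell by 0.79 (adjusted p = 0.0405). With 1 library left out, the call held in 4 of 10 fits for Pdk4, 2 of 10 for Angptl4 and 3 of 10 for Sesn1 (adjusted p up to 0.0847, 0.0866 and 0.08), and in 10 of 10 for Dusp1, Anxa1 and Rhob. Of the 5 cold libraries, replicate 5 held the lowest Anxa1, 9.16 CPM against 28.4 to 37.1 in the others. Per1 had a log2 fold change of -0.67 (adjusted p = 0.401) and Klf9 of 0.15 (adjusted p = 0.741).

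Without control replicate 2 and cold replicate 5, 5 genes of this list rose and 4 fell, with a median of -0.02 against -0.01 over all genes and with 13.6% of all genes called higher and 11.7% lower. The genes called in that fit and not in the fit of all libraries were named after their values were seen. Cdkn1a rose by 1.38 (adjusted p = 0.000598, edgeR) and Irs2 by 1.71 (adjusted p = 0.00619), whereas the metallothionein genes Mt1 and Mt2 fell by 0.41 (adjusted p = 0.0185) and 1.40 (adjusted p = 1.4e-05), and Plin4, a lipid droplet coat gene, fell by 0.61 (adjusted p = 0.0004). Dusp1, Pdk4, Anxa1 and Rhob were called in that fit too, while Sesn1 and Angptl4 did not (adjusted p = 0.0772 and 0.0586).

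Among 13 genes that glucocorticoids repress, mostly cytokines and proteases, 4 passed the filter. Vcam1, an adhesion molecule of vessel walls, rose by 0.84 (SE 0.27, adjusted p = 0.0434, edgeR). The call on Vcam1 held in 11 of 21 alternatives (adjusted p up to 0.12) and in 2 of 10 fits with 1 library left out (adjusted p up to 0.11). Icam1 had a log2 fold change of 0.59 (adjusted p = 0.138), Mmp3 of 0.58 (adjusted p = 0.276) and Nos2 of -0.23 (adjusted p = 0.594). Cold replicate 5 held 5.05 CPM of Vcam1 and the rest of its group 13.4 to 17.8 CPM, beside its low macrophage and fibroblast sums given above.

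Around SGK1, 15 of 16 genes of its activation, its targets and its kinase family were tested. Of these 4 rose (Sgk2 of the family among them), 1 fell and 10 were not called. Over all genes tested 10.2% were called higher and 9.14% lower. The median log2 fold change was 0.03, against -0.02 over all genes tested. The activating kinase gene Pdpk1 rose by 0.39 (SE 0.09, adjusted p = 0.00779, edgeR) and Mtor, whose kinase in complex 2 primes SGK1, by 0.50 (SE 0.13, adjusted p = 0.0163). The relative Sgk2 rose from 1.81, 21.6, 6.66, 1.35 and 1.65 CPM in control replicates 1 to 5 to 17.7, 28.0, 34.5, 57.2 and 49.9 CPM in cold replicates 1 to 5 (2.50, SE 0.59, adjusted p = 0.0112). Control replicate 2 was again the highest control for Sgk2, and without it the log2 fold change was 3.75 (SE 0.45, adjusted p = 0.000104). Nedd4, a ubiquitin ligase gene named after its values were seen, fell by 0.35 (adjusted p = 0.0178). Its relative Nedd4l (-0.05, adjusted p = 0.82, edgeR), Ndrg1 (0.22, adjusted p = 0.321) and Foxo1 (-0.13, adjusted p = 0.757) were not called. Nedd4l, Ndrg1 and Foxo1 were also named after their values were seen. The third kinase of the family, Sgk3, had a log2 fold change of 0.03 (adjusted p = 0.895), and the relatives of Tsc22d3 had 0.27 (Tsc22d1, adjusted p = 0.56) and -0.28 (Tsc22d4, adjusted p = 0.179).

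**Figure D5:**
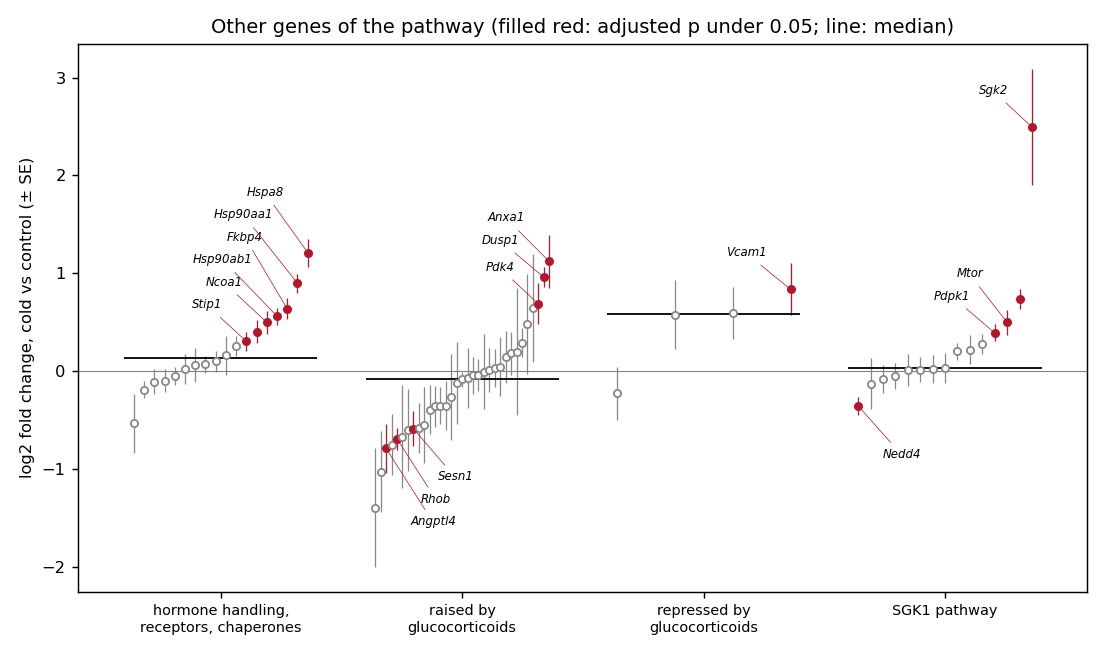
Log2 fold change (cold relative to control, bars show the SE) of each tested gene of the 4 pathway lists, in rising order within a list. Filled red points have an adjusted p under 0.05, those described in the text carry their names, and lines mark the list medians. In the hormone handling list 7 of 18 genes rose and 0 fell, and in the list raised by glucocorticoids 3 of 33 rose and 3 fell. Over all genes tested 10.2% were called higher and 9.14% lower.

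For each member, up to 3 genes are given whose deviations from their group means followed it most closely over the 10 libraries, by Pearson's r of log2 CPM over 11148 genes. These values describe the libraries, share control replicate 2 or cold replicate 5 as a far point, and carry no test. Sgk1 was followed by Ncl, the gene of nucleolin (r = 0.984, and 0.956 without control replicate 2), Esyt2 (0.960) and Fmo1 (0.956). Zbtb16 was followed by Mcf2l, a guanine nucleotide exchange factor gene (0.973, and 0.963 without control replicate 2), Timp3 (0.962), an inhibitor of metalloproteinases, and Itga3 (0.948), an integrin gene. Both Ncl and Mcf2l remained the nearest gene to their member without control replicate 2. Tsc22d3 was followed by Fam53a (0.970), Mepce (0.963) and Cyb5a (0.956), and Fkbp5 by Hsd17b10 (0.963) and Pawr (0.963). Without control replicate 2, Hsd17b10 was at r = 0.900 with Fkbp5 and only the 11th nearest. Hsd11b1 was followed less closely, by Sox6 (0.935), Rmnd5a (0.929) and Parva (0.922), and without cold replicate 5 Sox6 was at 0.833 and the 18th nearest.

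The authors' deposited table of the comparison gives Hsd11b1 at -1.26 on the log2 scale and an adjusted p of 0.000794. In the authors' deposited table the other members were at adjusted p of 0.0915 (Tsc22d3), 0.366 (Fkbp5), 0.521 (Zbtb16) and 0.724 (Sgk1). The authors' values come from a separate fit, and calls differ. Mt2, Rgs2 and Mepce were at adjusted p of 0.0324, 0.0377 and 0.0461 there. In the edgeR fit of all 10 libraries here they were at 0.0997, 0.123 and 0.0708. Stip1 went the other way, at 0.0794 there and 0.0466 here.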

How the data were processed

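Whole numbers of reads per RefSeq gene model were deposited for 10 libraries, as raw counts per the file headers and the values. The submitters' processing notes list STAR, edgeR and the build mm9, without versions; the read counter and strand setting were "not given in the sources used here". A second deposited table holds, per the file headers, the authors' log2 fold change, log2 CPM, p-value and adjusted p-value. Library totals were 4446163 to 6923932 counts. Control columns carry no group word and were matched by replicate number.

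Counts were tested with edgeR 4.0.16 (R 4.3.3): TMM scaling, filterByExpr, a quasi-likelihood F test of cold against control with no covariate, two-sided, Benjamini-Hochberg adjusted over 11229 genes, threshold 0.05. The SE is the size of the log2 fold change divided by the square root of F. The common dispersion corresponded to a coefficient of variation of 0.166. Log2 CPM for list means and likeness used a prior count of 2. The script was tested on simulated data. The labels name separate, singly housed mice, and no replicate pair agreed within sampling noise (chi-square per degree of freedom 3.31 to 38.7).

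The members and lists were chosen with earlier results of these data known. The rule for named genes takes the 5 members, 9 fixed partners and relatives, the 4 genes with the smallest p of each of 4 pathway lists, genes overlapping a member (none were found) and the 3 genes most like each member among those with a mean log2 CPM of at least 1; genes outside it are said to be so, and some genes that passed are not reported here. Alternatives were other scalings, filters and dispersions, limma-voom (limma 3.58.1), DESeq2 1.42.0, a replicate block, each library left out, and control replicate 2 and cold replicate 5 left out together. Starts count from 0 in the table and were raised by 1. No genome of mm9 was used, and promoters are of another build.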

Additional observations from a re-analysis of the deposited data

Results flagged for a closer look

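Of 28 groups of 5 libraries examined (the 5 members and 9 partners and relatives, in control and in cold), 9 had a library whose gap to the nearest other exceeded 0.71 of the group's range, where chance flags about 5% of groups. Control replicate 2 stood apart for Fkbp5 at 47.1 CPM against 4.60 to 8.67 in the other controls. It stood apart for Tsc22d3 at 99.2 CPM against 29.2 to 45.8, for Sgk1 at 242 CPM against 68.5 to 99.1, for Per1 at 134.7 CPM against 25.8 to 34.5, and for Klf9 at 248.7 CPM against 91.6 to 137.2. Cold replicate 5 stood apart for Fkbp5 at 18.9 CPM against 4.98 to 6.82 in the other cold libraries, for Klf9 at 243.5 CPM against 111.8 to 140.1, and for H6pd at 359.5 CPM against 222.4 to 259.3. Cold replicate 3 was low for Sgk1, at 94.3 CPM against 129.5 to 142. The genes share libraries, so these flags are not independent.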

How the results depend on the processing

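Under 21 alternatives Hsd11b1 stayed lower in cold (log2 fold change -1.76 to -1.09) and was called in 17; with robust dispersion it was -1.26 at an adjusted p of 0.0629, and with 1 library left out its range was the same. With 1 library left out, Fkbp5 ranged from -1.28 to 0.42, Sgk1 from 0.029 to 0.64, Zbtb16 from -1.33 to 0.047 and Tsc22d3 from -0.81 to -0.23. With both control replicate 2 and cold replicate 5 left out, Sgk1 was called at 0.61, H6pd was at -0.22, Rmnd5a at -0.015 and Ddit4, chosen after its values were seen, at 0.30. With 1 library left out, H6pd ranged from -0.11 to 0.10, Sgk3 from -0.041 to 0.12, Per1 from -1.07 to 0.077, Klf9 from -0.090 to 0.47, Pawr from -0.49 to 0.10, Fam53a from -0.17 to 0.033, Fmo1 from -0.18 to 0.040, Rmnd5a from -0.042 to 0.069, Parva from -0.022 to 0.16 and Ddit4 from -0.47 to 0.50.

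Of the genes raised by glucocorticoids, 2 to 5 rose and 1 to 5 fell with 1 library left out, 5 rose with both those libraries left out, and 1 fell with no scaling factor. Of the genes repressed by them, 0 to 3 rose with 1 library left out, 2 rose with no filter, 2 with the CPM filter, 0 with limma-voom, 0 with the replicate block and 3 with both those libraries left out; fits differ in the genes that pass the filter. Of the SGK1 list 0 to 1 fell with 1 library left out. Over all genes tested, 823 to 1310 were called higher and 732 to 1157 lower with 1 library left out. Over the 21 alternatives together 823 to 1547 were called higher and 732 to 1327 lower. The list counts are not adjusted for these changes in all genes. The cause of the changes in the list counts was not tested. Scalings moved the median of all genes by at most 0.03 (log2). Same-numbered control and cold libraries deviated together with correlations of 0.13, -0.02, -0.07, 0.19 and -0.25. Control replicates 1 and 4 correlated best with their own number and the others did not. The labels state no pairing, and these correlations cannot exclude one, because paired samples need not deviate together. With the replicate block Hsd11b1 was at -1.43 (adjusted p = 0.0051, edgeR) and the other 4 members were not called. Fkbp5 and Zbtb16 rest on as few as 20 and 13 counts in a library, which limits their precision.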
